A study of Mus musculus with 4 samples.

Results

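The genes described here are 36 genes of mouse chromosome 16 whose human counterparts lie on chromosome 21. They were taken by gene symbol from the deposited table, along the run of genes that starts at Lipi and ends at Mrps6. Claudins, interferon receptors, Adamts proteases and mitochondrial genes of the same run were not included. All 36 were found, among 36186 rows in all, and the run itself holds 150 rows.

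RNA was sequenced from cells of the kidney-ureter junction of mouse embryos of strain SV/129 at E13.5. The cells were sorted with an antibody into PTC2+ and PTC2− populations, with 2 libraries each. All 4 libraries came from PTC-/-MM mutants, in which the hedgehog receptor Ptch1 is missing from the metanephric mesenchyme, so neither population is normal tissue. The promoter that drove the deletion, and whether both libraries of 1 population stem from different embryos, are points on which the labels are silent. P-values therefore measure only the spread between these libraries, which may be technical.

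An extra copy of human chromosome 21 causes Down syndrome, and its counterparts in the mouse are split over several chromosomes, with the largest share on chromosome 16. Mice with this region in excess are used as models of the syndrome. The genes share a location rather than a pathway: they include the amyloid precursor gene App, the splicing factor gene Son, the ETS-family factor gene Gabpa and the oligodendrocyte factor genes Olig1 and Olig2. The embryos studied here were made for hedgehog signalling and not as a model of trisomy, so the comparison asks only which of these genes differed between the sorted populations.

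Levels are given as NRPKM, the authors' normalized form of RPKM, which divides the reads of a gene by its length and by the library's total. Column sums lay between 283806 and 288752 NRPKM. The values are not counts, so depth is known only by an estimate: the low value met most often among short genes put 1 read in 1 kb at 0.859 and 0.818 NRPKM for the PTC2+ libraries, against 0.645 and 0.877 NRPKM for the PTC2− libraries. Here and below, the value of replicate 1 comes before that of replicate 2. For much of the table names and values do not go together. Gapdh and Tpt1, used by every cell, were at or near 0: Gapdh at 0 and 0.252 NRPKM (PTC2+) against 9.11 and 0.0548 (PTC2−), and Tpt1 at 0 and 0 NRPKM (PTC2+) against 1.82 and 0 (PTC2−). In the stretch of chromosome 16 from Naa60 to Mrps6, which holds all the genes described here, such genes had high values. The ribosomal gene Rpl35a stood there at 650 and 498 NRPKM in PTC2+, against 716 and 635 NRPKM in PTC2− libraries. Because the row for Ptch1 lies outside such stretches, the deletion could not be checked here. The depth estimate drew on short genes from the whole table, so some lengths used in it may belong to other genes.

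Samsn1 was the only one of the 36 genes that passed the limma test. Samsn1 encodes an adaptor protein with SH3 and SAM domains made in blood cells. It stood at 8.33 and 6.51 NRPKM in PTC2+ cells, and at 0.470 and 0.216 NRPKM in PTC2− cells. The populations were far apart, but all 4 values are low: with exon lengths from the GENCODE annotation they are worth about 18.3 and 15.0 reads in PTC2+ and about 1.4 and 0.5 reads in PTC2− libraries. The difference was 2.65 on the log2(NRPKM + 1) scale, with a standard error of 0.43 and a 95% interval of 1.58 to 3.71 (limma, two-sided, Benjamini-Hochberg adjusted p = 0.0436). Samsn1 passed the filter on low values only through its PTC2+ libraries, so a difference was built into its being tested. The filter cannot change its difference. With no filter its limma adjusted p was 0.178, in a fit where 0 of 18613 rows passed (2596 at an unadjusted p under 0.05). With a pseudocount of 0.1 its difference was 4.14 and its adjusted p 0.0677, and 214 of 11807 rows passed. With quantile normalization the adjusted p was 0.0522. Leaving out any 1 library gave differences of 2.49 to 2.80 and adjusted p of 0.190 to 0.233, in fits where 0 to 42 of 11807 rows passed.

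Genes listed here as markers of myeloid cells moved the same way as Samsn1. Whether each of them is particular to myeloid cells was not tested. Of the 7 that lie in the chromosome 16 stretch, 6 passed as higher in PTC2+ cells and 0 as lower: Cd86, Cd200r1, Hcls1, Nrros, Klhl6 and Nfkbiz, while Cd80 did not pass. Of all rows tested, 2.44% passed as higher and 0.483% as lower. Of the 446 tested rows of the stretch outside the 36 genes, which include these markers, 5.38% passed as higher. All markers in this paragraph were chosen with earlier results of these data known, so their counts are no independent support. Cd86 and Cd200r1 were listed at 0 in both PTC2− libraries, so, like Samsn1, they passed the filter only through PTC2+. The summed level of the 7 was 675 and 590 NRPKM in PTC2+, against 82.4 and 75.2 NRPKM in PTC2− libraries. With Unc93b1, whose row on chromosome 19 lies outside the stretch, 7 of 8 passed, with sums of 918 and 834 NRPKM in PTC2+, against 86.8 and 84.4 NRPKM in PTC2− libraries. Of 5 stromal markers in the stretch 1 passed as lower, with sums of 403 and 345 NRPKM in PTC2+, against 760 and 815 NRPKM in PTC2− libraries; with Cd248, on chromosome 19, 2 of 6 passed. Of 4 epithelial markers 2 were tested and 1, Cldn8, passed as higher, with sums of 166 and 148 NRPKM in PTC2+, against 68.5 and 63.9 NRPKM in PTC2− libraries. The part of these cell types in the difference of Samsn1, or of any gene below, was not tested. In sorted bulk samples fewer cells of a type and less RNA per cell cannot be told apart.

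Of the 36 genes, 29 had 1 NRPKM or more in at least 2 libraries and were tested. As higher in PTC2+ cells 1 of 29 passed (3.45%), against 2.44% of all 11807 rows tested, and as lower 0 passed, against 0.483%. In either direction 2.92% of all rows passed, and in the other 446 tested rows of the same stretch 5.61% passed (5.38% as higher). A share of 3.45% is 1 gene and lies close to the background. At an unadjusted p under 0.05 there were 6 of 29 (20.7%), against 19.8% of all rows.

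The 2 populations did not overlap in 19 of the 29 genes, 9 of them higher and 10 lower in PTC2+ cells. The background was 49.5% of all rows tested (24.6% higher and 24.9% lower) and 60.3% of the other rows of the stretch. The median difference was -0.09 over the 29 genes, -0.03 over all rows and -0.07 over the other rows of the stretch. The median size of a difference regardless of sign was 0.35 for the genes, 0.38 for the other rows of the stretch and 0.42 for all rows. Median levels were 27.1 NRPKM for the 29 genes, 30.4 for the other rows of the stretch and 8.90 for all rows. The part of level in these comparisons was not tested. In 19 of the 29 genes the 95% interval lay wholly within 1 log2 unit of 0. The share of all rows with such an interval was not counted.

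**Figure D1:**
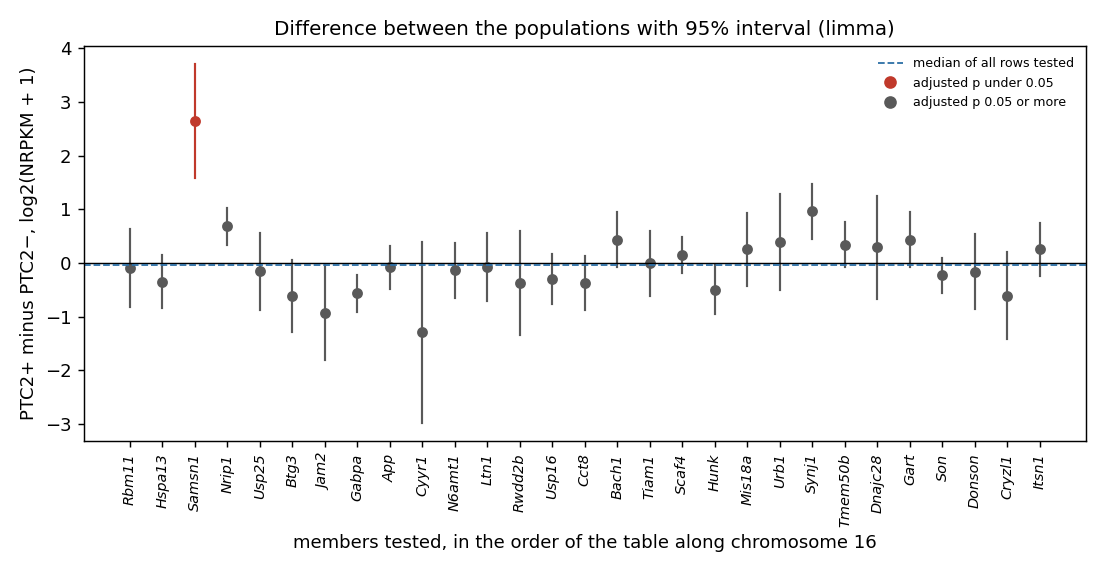
Difference in log2(NRPKM + 1), PTC2+ minus PTC2−, for the 29 genes tested, in the order of the table along chromosome 16. Points are limma estimates, bars their 95% intervals and the dashed line the median of all rows tested; Samsn1, at 2.65, is the only gene with an adjusted p under 0.05, and the others lie between -1.29 and 0.96.

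Among the transcription regulators, Nrip1 had the higher values in PTC2+ cells and Gabpa in PTC2− cells, and neither passed over all rows. Nrip1, a corepressor of nuclear receptors, stood at 157 and 150 NRPKM in PTC2+, against 99.4 and 91.4 NRPKM in PTC2− libraries. Gabpa, the DNA-binding subunit of an ETS-family factor that serves many mitochondrial and housekeeping genes, stood at 99.3 and 94.3 NRPKM in PTC2+, against 149 and 139 NRPKM in PTC2− libraries. In both genes replicates lay close together and the populations did not overlap. The log2 differences were 0.68 (standard error 0.14) for Nrip1 and -0.57 (standard error 0.14) for Gabpa, with limma adjusted p of 0.0755 and 0.111.

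Bach1, a haem-sensing repressor of antioxidant genes, averaged 54.7 ± 3.95 NRPKM in PTC2+ and 40.5 ± 7.78 NRPKM in PTC2− cells (SD, n = 2 each), with no overlap and a limma adjusted p of 0.316. Olig1 was listed at 0 in all 4 libraries. Olig2 stood at 0 and 0.336 NRPKM in PTC2+, against 0.529 and 0.360 NRPKM in PTC2− libraries, worth about 0, 1.0, 2.1 and 1.0 reads. Both are bHLH factors of the oligodendrocyte and motor neuron lineages, and neither was tested.

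When the fit and the adjustment were limited to the 475 tested rows of the chromosome 16 stretch, 4 of the 29 genes passed (13.8%), against 10.5% of these rows. They were Samsn1, Nrip1 and Synj1 as higher and Gabpa as lower (limma adjusted p = 0.0221, 0.0266, 0.0346 and 0.0414). The differences themselves do not depend on which rows are fitted.

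Among the signalling and endocytosis genes, Synj1 had the next largest difference after Samsn1. Synj1 encodes synaptojanin, a phosphoinositide phosphatase that uncoats endocytic vesicles. It stood at 35.8 and 36.4 NRPKM in PTC2+, against 19.2 and 16.9 NRPKM in PTC2− libraries, a ratio of means of 2.00 (log2 difference 0.96, standard error 0.21, limma adjusted p = 0.0801). Replicates of each population lay close together, and all PTC2+ values were above all PTC2− values.

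Itsn1, an endocytic scaffold that works beside synaptojanin, averaged 28.8 ± 0.628 NRPKM in PTC2+ and 23.9 ± 1.10 NRPKM in PTC2− cells (SD, n = 2 each), with a limma adjusted p of 0.548. Hunk, a kinase related to SNF1, averaged 52.9 ± 4.99 NRPKM in PTC2+ and 75.4 ± 10.7 NRPKM in PTC2− cells (SD, n = 2 each), with a limma adjusted p of 0.219. Tiam1, an activator of the GTPase Rac, averaged 16.9 ± 1.09 and 17.0 ± 1.93 NRPKM in PTC2+ and PTC2− cells, with an interval of the log2 difference of -0.61 to 0.60. Grik1, a kainate-type glutamate receptor, lay between 0.476 and 1.46 NRPKM over the 4 libraries and was not tested.

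The surface and adhesion genes included App, Jam2 and Cyyr1. App, the precursor of amyloid beta, stood at 50.7 and 53.0 NRPKM in PTC2+, against 56.6 and 53.1 NRPKM in PTC2− libraries. All 4 values lay within a narrow range, and the log2 difference was -0.08 with an interval of -0.48 to 0.33 (limma adjusted p = 0.844). Jam2, a junctional adhesion molecule of endothelium, stood at 7.03 and 5.49 NRPKM in PTC2+, against 10.5 and 15.3 NRPKM in PTC2− libraries (log2 difference -0.92, standard error 0.35, limma adjusted p = 0.232). Cldn5 and Adamts1, listed here as endothelial markers, did not pass. Cldn5 stood at 57.8 and 30.3 NRPKM in PTC2+, against 34.6 and 34.9 NRPKM in PTC2− libraries, so the populations overlapped. Adamts1 stood at 251 and 231 NRPKM in PTC2+, against 216 and 201 NRPKM in PTC2− libraries, with no overlap. Col4a1 and Col4a2, also listed as endothelial, did not pass either. Col4a1 stood at 238 and 222 NRPKM in PTC2+, against 228 and 241 NRPKM in PTC2− libraries, so the populations overlapped. Col4a2 was lower in PTC2+ with no overlap, at 201 and 193 NRPKM, against 206 and 234 NRPKM in PTC2− libraries. The rows of Col4a1 and Col4a2 on chromosome 8 lie outside the stretch that holds the genes described here. Earlier work on these data found row names reliable there too, which was not checked again.

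Cyyr1, a small membrane protein, had the largest negative difference (-1.29) but also the largest standard error (0.68). Its values were 3.86 and 1.08 NRPKM in PTC2+, against 3.79 and 11.6 NRPKM in PTC2− libraries, so the populations overlapped. Tmem50b, a membrane protein, averaged 70.4 ± 7.96 NRPKM in PTC2+ and 55.3 ± 0.840 NRPKM in PTC2− cells (SD, n = 2 each), with a limma adjusted p of 0.341. Chodl, a C-type lectin, the neural adhesion gene Ncam2 and Eva1c, a heparin-binding receptor, stayed at or below 1.48 NRPKM in every library and were not tested.

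The genes of RNA processing included Son and Scaf4, the most abundant of the 36 by mean level. Son, a nuclear speckle protein needed for splicing, stood at 266 and 269 NRPKM in PTC2+, against 333 and 296 NRPKM in PTC2− libraries (log2 difference -0.23, interval -0.57 to 0.10, limma adjusted p = 0.417). Scaf4, which binds RNA polymerase and prevents early transcript ends, stood at 153 and 155 NRPKM in PTC2+, against 139 and 138 NRPKM in PTC2− libraries (log2 difference 0.15, interval -0.18 to 0.48, limma adjusted p = 0.600). In both genes the populations did not overlap, and the differences were small and did not pass. Rbm11, a splicing regulator, and Urb1, a ribosome assembly factor, overlapped between populations and averaged 16.4 and 9.67 NRPKM over the 4 libraries.

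All 7 genes of ubiquitin and protein folding were tested and 0 passed; 6 of the 7 differences were below 0, as were 18 of the 29 genes tested (62.1%), 52.2% of all rows and 56.1% of the other rows of the stretch. Cct8, a subunit of the cytosolic chaperonin, averaged 74.3 ± 3.11 NRPKM in PTC2+ and 97.6 ± 21.8 NRPKM in PTC2− cells (SD, n = 2 each). Its PTC2− libraries stood apart from each other, at 113 and 82.2 NRPKM, and both lay above the PTC2+ libraries. Usp16, a histone deubiquitinase, averaged 37.1 ± 4.12 NRPKM in PTC2+ and 45.7 ± 2.97 NRPKM in PTC2− cells. Hspa13, an HSP70-family chaperone of microsomes, averaged 28.4 ± 0.894 NRPKM in PTC2+ and 36.5 ± 4.46 NRPKM in PTC2− cells (SD, n = 2 each for these genes).

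The limma adjusted p of these 7 genes lay between 0.377 and 0.914. The deubiquitinase gene Usp25, Ltn1, a ligase that marks stalled nascent chains, and Rwdd2b each overlapped between populations. Dnajc28, of the DnaJ family of co-chaperones, was the one with a difference above 0, at 10.7 and 6.40 NRPKM in PTC2+, against 6.26 and 6.97 NRPKM in PTC2− libraries.

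Of the 4 genes of cell cycle, replication and methylation, 0 passed. Btg3, an antiproliferative protein, stood at 17.6 and 24.5 NRPKM in PTC2+, against 28.0 and 37.6 NRPKM in PTC2− libraries (log2 difference -0.62, limma adjusted p = 0.285). Donson, which helps to load the replicative helicase, stood at 76.9 and 44.1 NRPKM in PTC2+, against 66.3 and 64.6 NRPKM in PTC2− libraries. Its PTC2+ replicates spanned both PTC2− values. Mis18a, a centromere factor, and N6amt1, a protein methyltransferase, averaged 13.6 and 36.5 NRPKM over the 4 libraries.

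Among the enzymes of metabolism, Gart makes purines, and Cryzl1 is related to quinone oxidoreductases. Gart averaged 43.7 ± 0.131 NRPKM in PTC2+ and 32.3 ± 6.03 NRPKM in PTC2− cells (SD, n = 2 each), with a limma adjusted p of 0.321. Cryzl1 averaged 10.1 ± 3.08 NRPKM in PTC2+ and 15.7 ± 2.35 NRPKM in PTC2− cells (SD, n = 2 each), with a limma adjusted p of 0.380. Lipi, a phospholipase, was listed at 0 except for 0.709 NRPKM in PTC2+ replicate 2.

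**Figure D2:**
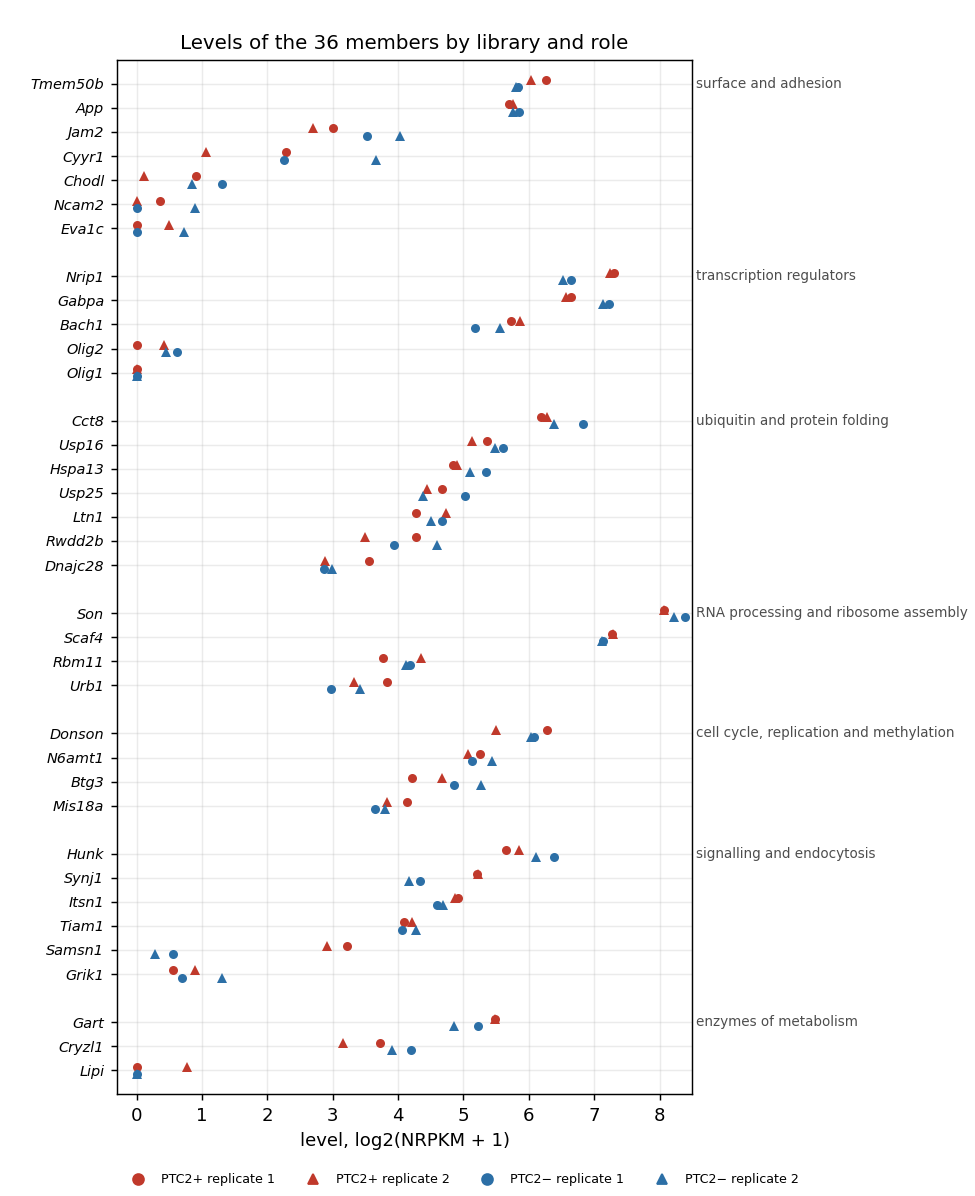
Level of each of the 36 genes in each library as log2(NRPKM + 1), grouped by role. Red points are PTC2+ and blue points PTC2− libraries, with circles for replicate 1 and triangles for replicate 2; Samsn1 shows the widest gap between the colours, and the genes near 0, such as Olig1 and Lipi, were not tested.

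Some of these genes start head to head, on opposite strands with starts at most 1000 bases apart. In the GENCODE M21 annotation of GRCm38 there were 2 such pairs within the 36 genes, Gart with Son (554 bases between starts) and Cryzl1 with Itsn1 (306 bases). Gabpa formed another with the mitochondrial gene Atp5j, and their exons share 182 bases. The RefSeq promoter windows of build GRCm38.p6, 300 bases around the RefSeq start of each gene, are shown for the members of these pairs and for Samsn1, the one gene that passed. RefSeq and GENCODE place the start of Son apart, and its window lies wholly downstream of the GENCODE start used for the distance. Capitals mark matches to motifs searched on both strands, named after the sequences.
Samsn1, chr16:75909217-75909516, minus strand: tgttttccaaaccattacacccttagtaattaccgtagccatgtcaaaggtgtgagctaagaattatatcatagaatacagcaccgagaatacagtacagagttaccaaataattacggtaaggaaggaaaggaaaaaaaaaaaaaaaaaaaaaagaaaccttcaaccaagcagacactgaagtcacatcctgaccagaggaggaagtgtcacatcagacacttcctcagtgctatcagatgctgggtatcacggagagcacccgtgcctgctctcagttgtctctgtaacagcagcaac
Gabpa, chr16:84834874-84835173, plus strand: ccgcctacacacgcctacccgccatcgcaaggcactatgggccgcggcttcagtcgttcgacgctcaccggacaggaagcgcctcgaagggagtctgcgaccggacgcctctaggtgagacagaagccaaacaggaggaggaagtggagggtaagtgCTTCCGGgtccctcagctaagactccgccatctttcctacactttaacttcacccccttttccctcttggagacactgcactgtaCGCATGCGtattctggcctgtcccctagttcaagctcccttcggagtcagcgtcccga
Gart, chr16:91646923-91647222, minus strand: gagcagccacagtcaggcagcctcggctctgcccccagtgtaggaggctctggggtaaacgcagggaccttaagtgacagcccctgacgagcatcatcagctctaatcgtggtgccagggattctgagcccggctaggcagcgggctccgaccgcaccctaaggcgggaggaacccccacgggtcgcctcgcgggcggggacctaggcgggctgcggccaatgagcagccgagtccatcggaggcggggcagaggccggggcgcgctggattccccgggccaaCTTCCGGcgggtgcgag
Son, chr16:91647574-91647873, plus strand: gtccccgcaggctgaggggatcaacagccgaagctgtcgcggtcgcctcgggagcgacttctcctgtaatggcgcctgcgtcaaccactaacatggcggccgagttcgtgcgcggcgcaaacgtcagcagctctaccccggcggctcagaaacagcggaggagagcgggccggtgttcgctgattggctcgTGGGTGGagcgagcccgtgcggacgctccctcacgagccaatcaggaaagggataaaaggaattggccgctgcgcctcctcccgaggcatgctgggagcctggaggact
Cryzl1, chr16:91728753-91729052, minus strand: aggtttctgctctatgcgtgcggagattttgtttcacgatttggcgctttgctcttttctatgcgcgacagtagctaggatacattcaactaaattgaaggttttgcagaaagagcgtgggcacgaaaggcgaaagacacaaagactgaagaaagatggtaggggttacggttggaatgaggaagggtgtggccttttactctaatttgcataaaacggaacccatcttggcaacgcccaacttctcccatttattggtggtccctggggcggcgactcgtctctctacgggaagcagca
Itsn1, chr16:91729121-91729420, plus strand: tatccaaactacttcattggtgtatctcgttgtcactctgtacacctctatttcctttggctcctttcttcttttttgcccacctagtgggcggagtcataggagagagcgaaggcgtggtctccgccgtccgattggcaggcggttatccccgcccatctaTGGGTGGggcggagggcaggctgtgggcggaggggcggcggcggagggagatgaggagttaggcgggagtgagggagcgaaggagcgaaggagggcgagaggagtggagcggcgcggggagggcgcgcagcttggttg

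The motifs were an ETS core (CCGGAAG), the letters bound by factors such as that of Gabpa, a GLI core (TGGGTGG), an NRF1 core (GCATGCG) and an E-box (CACGTG). A RefSeq window was found for 30 of the 36 genes. The ETS core was present in 7 of the 30 (23.3%), against 9.93% of 27025 genes in the table, and in Gabpa itself and Gart among the sequences above. The GLI core was present in 6 of the 30 (20.0%), against 10.6% of genes, with Son and Itsn1 among them. The NRF1 core was found in 4 and the E-box in 1 of the 30, against 4.01% and 8.09% of genes. Samsn1 and Cryzl1 held none of these letters. No motif holds another, but the NRF1 core and its reverse complement overlap in CGCATGCG, as in the Gabpa window. The windows were not matched for base content, so the shares describe these windows only.

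Within each head-to-head pair the estimated differences had opposite signs, and no partner passed the test over all rows. They were 0.44 for Gart and -0.23 for Son, -0.61 for Cryzl1 and 0.26 for Itsn1, and 0.48 for Atp5j and -0.57 for Gabpa. Son stood at 6.08 and 6.17 times the level of Gart in PTC2+ libraries and at 9.12 and 10.6 times in PTC2− libraries. Itsn1 stood at 2.38 and 3.57 times the level of Cryzl1 in PTC2+, against 1.33 and 1.76 times in PTC2− libraries. Gabpa stood at 7.67 and 4.44 times the level of Atp5j in PTC2+, against 14.2 and 10.8 times in PTC2− libraries. These ratios were not tested.

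**Figure D3:**
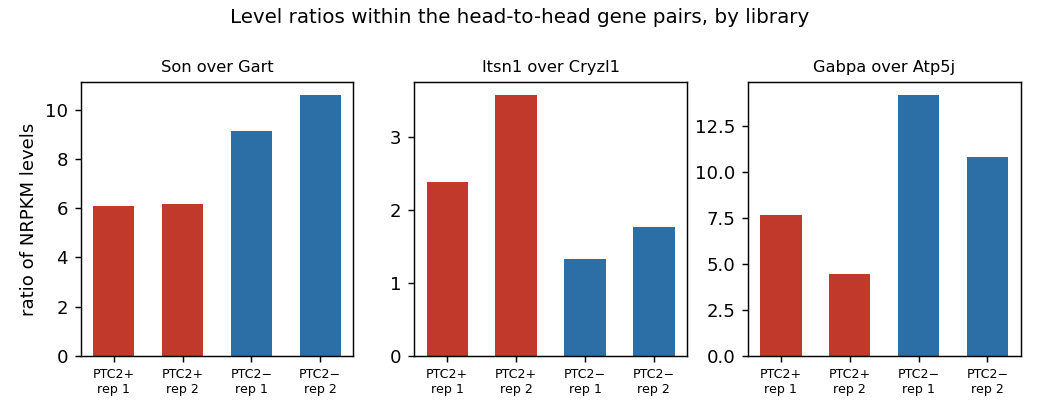
Ratio of NRPKM levels of the plus-strand gene over the minus-strand gene of each head-to-head pair, 1 bar per library, with PTC2+ in red and PTC2− in blue. The ratio is lower in PTC2+ libraries for Son over Gart and Gabpa over Atp5j, and higher for Itsn1 over Cryzl1.

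Overlap between annotated genes limits some of these values. For genes on opposite strands, the sources used here do not say that reads were counted by strand. In the annotation 8 of the 36 genes share exon bases with another gene: Gabpa, App, Usp16, Cct8, Olig1, Gart, Donson and Cryzl1. The largest shares were those of Gart, with 17.0% of its exon bases, Cryzl1, with 15.0%, and Donson, with 12.1%. Donson shares its bases with Atp5o on the same strand, where counting by strand would not separate the reads. Atp5o stood at 84.9 and 55.6 NRPKM in PTC2+, against 71.4 and 65.3 NRPKM in PTC2− libraries. The part of this overlap in the values of Donson was not tested.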

How the data were processed

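The cDNA was amplified by NuGEN Ovation chemistry before Nextera XT library preparation, per the labels' protocols. The submitters' processing notes name build mm9 and the tools TopHat, TopHat2 2.0.5 and Cufflinks 2.0.0, but neither the read counter nor the gene models. The authors deposited RPKM values that were normalized once more, per the file headers, by a formula not given in the sources used here.

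For testing, log2(NRPKM + 1) values went into limma 3.58.1 (R 4.3.3; lmFit, eBayes with a mean-variance trend, population as the only term) on rows that reached 1 NRPKM in 2 or more libraries. P-values were adjusted by Benjamini-Hochberg over all rows tested, at 0.05. A difference is PTC2+ minus PTC2−, and the pseudocount shrinks it for low genes. The procedure was tested on simulated data. The value of 1 read was estimated from genes under 3000 bp named Olfr, Gm or Vmn, taken from the whole table. Of 85 to 125 low values per library, 17 to 37 lay within 0.5% of it. Only relative depth is estimated so. The read numbers given above are rough, since they take this value as exactly 1 read. They also rest on gene lengths from rows whose names may not go with their values. Coordinates are GRCm38, not the build of the authors' files, and serve for sequences and gene neighbours.

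Values in every library are given for genes that passed or that averaged 100 NRPKM or more. They are also given for genes that did not overlap at a difference of 1 or more, and for App, Son, Gabpa, Samsn1, Olig1 and Olig2. Of the other genes, up to 4 examples of each role have library values or means, and the rest ranges or counts. The genes, lists and markers, the reliable stretches included, were chosen with earlier results of these data known. Replicate numbers come from the labels, which do not say that they pair libraries; same-numbered deviations correlated at 0.0229 over 11807 rows.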

Additional observations from a re-analysis of the deposited data

How the results depend on the processing

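A changed filter, no mean-variance trend, replicate number as a block and a fit on the stretch alone cannot change a gene's difference. In those fits direction was fixed in advance, and in all fits only Samsn1 had a call to lose. The counts are therefore no measure of robustness. Of 376 alternative values of single genes, 354 kept their direction and side of the threshold, 8 lost the call, 3 gained it and 11 changed sign. The 8 all belong to Samsn1, whose log2 difference lay between 1.21 and 4.14 and adjusted p between 0.0221 and 0.233. The count of genes that passed (1, with 1 higher and 0 lower) was 0 with a pseudocount of 0.1, with no filter, where only rows at 0 throughout were left out, and with quantile normalization (limma adjusted p of Samsn1 = 0.0522). In each of these fits 6 genes had an unadjusted p under 0.05. Of all rows, 2242 of 11807, 2596 of 18613 and 2383 of 11807 did so, in that order, and 214, 0 and 337 passed. Fitted on the chromosome 16 stretch alone the count of genes was 4, with 3 higher and 1 lower, where fewer rows were tested and 50 of 475 passed. Leaving out 1 library left 1 in its population, and the difference of Samsn1 was then 2.49 to 2.80. The count of genes was 1 with a pseudocount of 5, a filter of 5 NRPKM, median-of-ratios scaling and no mean-variance trend. In that order, 314 of 11807, 412 of 8141, 361 of 11798 and 200 of 11807 rows passed. Why the count changed between these fits was not tested. The median difference stayed between -0.13 and -0.04.

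With the replicate number as a block, 0 genes passed (6 at an unadjusted p under 0.05) and the limma adjusted p of Samsn1 was 0.0585. Of all 11807 rows, 332 passed in this fit (2436 at an unadjusted p under 0.05). The labels do not show that the numbers pair libraries.

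The values that changed sign were small and far from the threshold. With 1 library left out, the differences ranged from -0.040 to 0.63 for Dnajc28, -0.56 to 0.23 for Donson, -0.30 to 0.16 for Ltn1, -0.28 to 0.018 for N6amt1, -0.38 to 0.20 for Rbm11, -0.77 to 0.015 for Rwdd2b, -0.11 to 0.10 for Tiam1 and -0.48 to 0.17 for Usp25. With median-of-ratios scaling that of Tiam1 was 0.043. Genes at or below about 1 NRPKM rest on a few reads and allow no comparison.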

Other observations

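The counterparts of human chromosome 21 genes that lie in the same run but were not among the 36 genes held 3 genes that passed. Of 14 listed, 13 were tested, and the 3 passed over all rows as higher in PTC2+ cells, against 2.44% of all rows and 5.38% of the 446 tested rows of the stretch outside the 36 genes, which include them. Ifnar2, a chain of the type I interferon receptor, stood at 190 and 210 NRPKM in PTC2+, against 43.1 and 20.3 NRPKM in PTC2− libraries (log2 difference 2.71, standard error 0.35, limma adjusted p = 0.0266). Its neighbour Il10rb, a chain of cytokine receptors, stood at 33.7 and 32.7 NRPKM in PTC2+, against 6.34 and 7.52 NRPKM in PTC2− libraries (limma adjusted p = 0.0240). Cldn8, a claudin of the collecting duct, was the other gene that passed (log2 difference 3.46). Sod1, the cytosolic superoxide dismutase, did not pass, with 146 and 106 NRPKM in PTC2+, against 156 and 150 NRPKM in PTC2− libraries (limma adjusted p = 0.464). The list was written with earlier results of these data known.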
